A study of Caenorhabditis elegans with 2 samples.

Results

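The genes described here encode 7 proteins of protein folding in Caenorhabditis elegans, hsp-1 and hsp-110 in the cytosol, hsp-3, hsp-4 and uggt-1 in the endoplasmic reticulum (ER), and hsp-6 and hsp-60 in mitochondria. They are 7 of the 19985 protein-coding genes of the annotation, and 22 of the 26787 regions listed from both replicates together (the pooled list) had a summit within 2000 bp of a 5′ end of one of their transcripts. The genes were chosen by measured values, since strong regions beside some of them were known when the set was drawn up. Their ranks are therefore a description, and no test of them was made.

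NHR-237 belongs to the nuclear hormone receptors, transcription factors of which many respond to small lipophilic ligands, and the DNA recovered with it (ChIP-seq) was sequenced from L4 larvae, the last larval stage. The worms were of the transgenic strain OP228, with the genotype unc-119(ed3) III; wgIs228, in which NHR-237 carries a GFP-FLAG tag at its C terminus, and they were of mixed sex. There were 2 biological replicates of 1 group and no second condition, and cells of all tissues were pooled, so binding in a minority of cells and weak binding in many cannot be told apart. Of the pooled regions, 237 passed the authors' irreproducible discovery rate procedure, which compares replicates (the IDR peaks). These were exactly the 237 strongest regions of the pooled list. An IDR peak was not always listed in both replicates: no region of replicate 2 overlapped the one past the 3′ end of hsp-3.

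Chaperones of the HSP70 class hold unfolded stretches of protein in cycles driven by ATP, with co-chaperones that deliver clients and exchange nucleotide. Each compartment has its own forms, and damage to proteins raises their transcription through separate routes: heat shock factor HSF-1 for the cytosol, the unfolded protein response with XBP-1 for the ER, and ATFS-1 for mitochondria. Heat shock factors bind arrays of alternating GAA and TTC units (heat shock elements). Many of these genes are also transcribed strongly without stress.

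The sequences around the strongest summits are shown for the 5 genes that had a region near or among the IDR peaks, because the comparison of compartments and the motif matches turn on them. Each was read from the RefSeq WBcel235 genome (the same assembly as ce11, the build of the lists), 5′ to 3′ on the strand of the gene, over 201 bp centred on the summit. The region past the 3′ end of hsp-3 is cut to its 123 bases outside the gene. Capitals mark matches to the motifs given in the paragraph on motifs.
hsp-1 upstream, chrIV:17278514-17278714 (plus strand): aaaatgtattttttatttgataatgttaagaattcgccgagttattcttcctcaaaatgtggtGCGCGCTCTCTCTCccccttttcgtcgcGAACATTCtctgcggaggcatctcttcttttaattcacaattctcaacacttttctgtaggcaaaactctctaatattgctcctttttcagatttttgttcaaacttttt
hsp-110 upstream, chrIII:8447087-8447287 (minus strand): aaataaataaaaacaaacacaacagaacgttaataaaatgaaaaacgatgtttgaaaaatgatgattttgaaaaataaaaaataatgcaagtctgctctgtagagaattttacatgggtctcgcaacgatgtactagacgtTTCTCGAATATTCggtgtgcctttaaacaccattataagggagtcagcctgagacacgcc
hsp-3 upstream, chrX:6092130-6092330 (minus strand): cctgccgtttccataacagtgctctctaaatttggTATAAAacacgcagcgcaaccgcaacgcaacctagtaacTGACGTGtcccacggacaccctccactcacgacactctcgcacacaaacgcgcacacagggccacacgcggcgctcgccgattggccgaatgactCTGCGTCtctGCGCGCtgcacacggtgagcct
hsp-3 past the 3′ end, chrX:6088905-6089027 (minus strand): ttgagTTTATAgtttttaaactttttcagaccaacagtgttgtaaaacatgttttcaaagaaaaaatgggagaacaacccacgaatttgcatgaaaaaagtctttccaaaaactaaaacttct
uggt-1 upstream, chrX:7501078-7501278 (minus strand): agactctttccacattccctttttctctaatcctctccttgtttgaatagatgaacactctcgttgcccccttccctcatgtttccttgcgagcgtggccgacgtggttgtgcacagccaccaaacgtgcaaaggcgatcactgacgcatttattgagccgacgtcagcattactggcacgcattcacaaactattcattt
hsp-60 upstream, chrIII:1618955-1619155 (plus strand): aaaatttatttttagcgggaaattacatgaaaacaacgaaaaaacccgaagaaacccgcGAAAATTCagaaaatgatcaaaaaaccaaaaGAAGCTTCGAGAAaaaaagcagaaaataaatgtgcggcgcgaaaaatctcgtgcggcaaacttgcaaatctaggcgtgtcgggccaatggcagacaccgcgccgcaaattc

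Regions were ranked within each list by the authors' signal value, with rank 1 the strongest. The signal has no stated scale and differs between lists, so ranks rather than signals are set side by side. Signals ran from 6.97 to 369 in the pooled list with a median of 9.42, from 4.71 to 253 in the list of replicate 1 and from 2.83 to 136 in that of replicate 2. The replicates' lists held 30000 regions each and include background. The pooled list is likewise labelled as peaks and background, and its median −log10 q was 0.0875. A place in it is therefore not by itself a called binding site. The last IDR peak, at rank 237, had a pooled signal of 31.03. Regions with the highest −log10 q of the pooled list (2.07) numbered 413, so a region can share the q value of the IDR peaks without being one of them.

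Of the 7 genes, 3 had an IDR summit within 2000 bp of a 5′ end (hsp-1, hsp-110 and hsp-3), against 1.42% of all protein-coding genes (284 of 19985). Counting a peak only for the gene with the nearest 5′ end left hsp-1 and hsp-3, 2 of the 7, against 0.861% of all genes. The peak of hsp-110 was counted for rpn-3 under that rule. The gene hsp-3 had 2 IDR summits, as did or exceeded 0.13% of all genes (26). Since strong regions were among the reasons for choosing these genes, these shares are given as background only. A pooled region of any strength was within 2000 bp of all 7, and such a region was also near 67.4% of all genes, so its presence alone sets none of them apart. Restricting to the 1000 strongest pooled regions left 5 of the 7, all but hsp-4 and hsp-6, against 5.4% of all genes.

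By compartment, both cytosolic genes, 1 of the 3 ER genes and 0 of the 2 mitochondrial genes had an IDR peak. The strongest pooled region ranked 148 and 181 for the cytosolic genes, 116 to 4277 for the ER genes with a median of 239, and 249 and 3307 for the mitochondrial genes. The ranges of the ER and mitochondrial genes overlapped, and the cytosolic ranks fell inside the range of the ER genes. With 2 or 3 genes a compartment, no order of compartments was read from these values. Each of the ER and mitochondrial groups held a gene with a rank in the top 1000 beside a gene well below it.

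**Figure D1:**
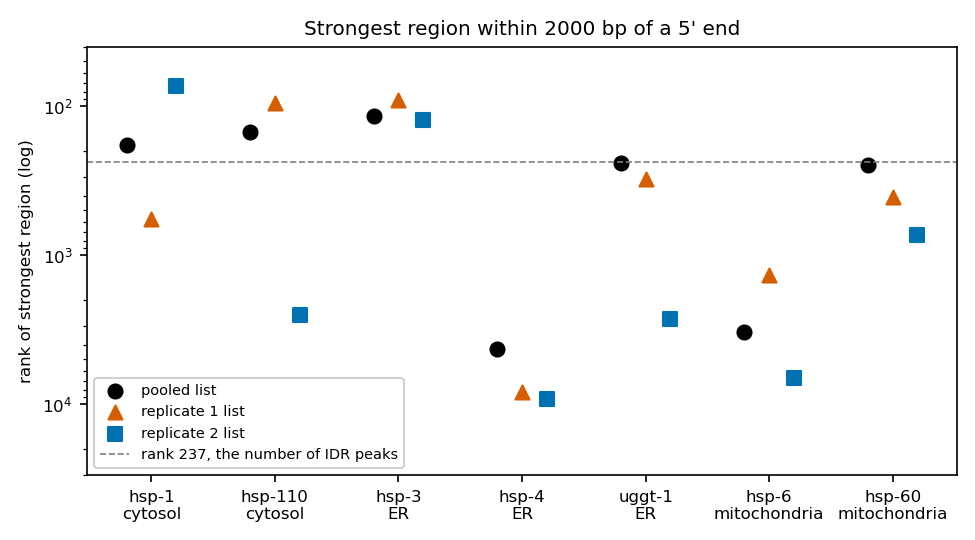
Rank of the strongest region within 2000 bp of a 5′ end (log axis, rank 1 strongest and upward) for the 7 genes in the pooled list and in each replicate's list; the dashed line is rank 237, the number of IDR peaks. In all 3 lists hsp-3 lies above the line, hsp-1 and hsp-110 do so in the pooled list and 1 replicate each, and hsp-4 lies at rank 4277 or weaker.

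The cytosolic gene hsp-1 (WBGene00002005, chromosome IV, 17278959 to 17281330, plus strand) encodes the constitutive HSP70 of the cytosol. Its IDR peak (17278444 to 17278783) lay between genes, with its summit 345 bp upstream of the single annotated 5′ end, and had rank 181 and a signal of 35.1 in the pooled list. In replicate 1 it ranked 573 with a signal of 16.9 and a summit 309 bp upstream, and in replicate 2 it ranked 73 with a signal of 22.5 and a summit 353 bp upstream. The summits thus lay close together in both replicates, with the higher rank in replicate 2. The other 2 pooled regions within 2000 bp were weak: rank 7068 in a coding exon 1041 bp downstream, found in replicate 1 at rank 1602 and not found in replicate 2, and rank 23916 in a coding exon of the upstream neighbour clec-196, found only in replicate 2 at rank 1493. A small nucleolar RNA gene, F26D10.24, has its 5′ end 46 bp from the first of these.

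The gene hsp-110 (WBGene00016250, chromosome III, 8443910 to 8446909, minus strand) encodes an HSP110, a relative of HSP70 that acts as its nucleotide exchange factor. Its IDR peak (8447017 to 8447356) lay between genes, 278 bp upstream, at pooled rank 148 with a signal of 37.6. In replicate 1 this region ranked 95 with a signal of 33.0. In replicate 2 the overlapping region ranked 16818 with a signal of 4.11, just under that list's median of 4.35, and the strongest region within 2000 bp was another one, at rank 2518 in an intron 526 bp downstream. The strength of the hsp-110 peak thus came from replicate 1. The same summit lay 166 bp upstream of rpn-3, a divergent gene that encodes a subunit of the 26S proteasome, and the position cannot tell the 2 genes apart.

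Both hsp-3 and hsp-4 encode worm forms of BiP, the HSP70 of the ER, and they differed in these lists. The gene hsp-3 (WBGene00002007, chromosome X, 6089028 to 6092124, minus strand) had an IDR peak at each end. The upstream peak (6092060 to 6092399) had its summit 106 bp from the outermost 5′ end and ranked 159 in the pooled list with a signal of 36.8. It ranked 910 in replicate 1 with a signal of 14.9 and 124 in replicate 2 with a signal of 17.1. The second peak (6088835 to 6089174) lay between genes, with its summit 23 bp past the annotated 3′ end, and was the strongest region of any of the 7 genes, with pooled rank 116 and a signal of 41.9. It ranked 91 in replicate 1 with a signal of 34.0, and no region of replicate 2 overlapped it. The nearest region of replicate 2 lay inside the gene at rank 2307 with a signal of 8.01. The peaks at the ends of hsp-3 therefore differed in which replicate held them.

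The peak past the 3′ end entered the set because hsp-3 has 3 annotated 5′ ends, and the summit lay 1466 bp downstream of the innermost and 3119 bp from the outermost. The nearest 5′ end of any protein-coding gene belonged to C45B2.8, whose RefSeq product is a transposase, at 1029 bp. The 2 remaining pooled regions of hsp-3 lay in an intron and a coding exon at ranks 13458 and 18419.

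For hsp-4 (WBGene00002008, chromosome II, 7350112 to 7352645, minus strand), whose transcription rises sharply in the unfolded protein response, the 5 pooled regions within 2000 bp ranked from 4277 to 26160. The strongest (7351323 to 7351662) lay in a coding exon, 1152 bp downstream of the outermost 5′ end and 164 bp upstream of an internal one, with a signal of 13.2 and a −log10 q of 0.327. It ranked 8356 in replicate 1 with a signal of 8.39 and 9297 in replicate 2 with a signal of 5.31. Both replicates thus placed it far from the top. Within 2000 bp upstream of the gene the strongest pooled region was 805 bp away at rank 21890, and replicate 2 had no region there. Within that distance of the outermost 5′ end, the strongest upstream region ranked 159 for hsp-3, at 106 bp, and 21890 for hsp-4. Farther upstream of hsp-4 there were pooled regions at rank 15749 (2663 bp) and rank 16558 (4449 bp).

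The gene uggt-1 (WBGene00018604, chromosome X, 7495694 to 7500982, minus strand) encodes UDP-glucose:glycoprotein glucosyltransferase, the ER enzyme that tags misfolded glycoproteins for another round of folding. Its strongest region (7501008 to 7501347) lay between genes 196 bp upstream, at pooled rank 239 with a signal of 30.98 and a −log10 q of 2.07. It was the second region below the IDR threshold: rank 237, the last IDR peak, had 31.03 and rank 238, a region at another gene, also had 31.03 after rounding. In replicate 1 the region of uggt-1 ranked 306 with a signal of 20.6, and in replicate 2 it ranked 2668 with a signal of 7.73. It was thus weaker in replicate 2 by rank. The other pooled region of uggt-1 ranked 19840, in a coding exon of F48E3.6.

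The mitochondrial genes also differed. The gene hsp-60 (WBGene00002025, chromosome III, 1619742 to 1625803, plus strand) encodes the mitochondrial chaperonin, a barrel in which proteins fold after import. Its strongest region (1618885 to 1619224) lay between genes 687 bp upstream at pooled rank 249, with a signal of 30.4 and a −log10 q of 2.07. In replicate 1 it ranked 409 with a signal of 18.9 and a summit 542 bp upstream, and in replicate 2 it ranked 738 with a signal of 10.4 and a summit 603 bp upstream. It was in the top 1000 of all 3 lists without being an IDR peak. The nearest 5′ end, at 126 bp, was that of the divergent gene Y22D7AL.10, whose RefSeq product is the mitochondrial 10 kDa heat shock protein, the partner class of this chaperonin. The other 4 pooled regions lay in introns of hsp-60, at ranks 1568, 3736, 4863 and 9245.

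The gene hsp-6 (WBGene00002010, chromosome V, 4824124 to 4826760, minus strand) encodes the mitochondrial HSP70. Only 1 pooled region was within 2000 bp (4827032 to 4827371), between genes 442 bp upstream, at rank 3307 with a signal of 14.1 and a −log10 q of 0.424. In replicate 1 it ranked 1351 with a signal of 13.6. No region of replicate 2 overlapped it, and the strongest region of replicate 2 near the gene ranked 6680, in a coding exon 984 bp downstream. The upstream region thus rested on replicate 1, and the nearest 5′ end belonged to C37H5.5, a divergent gene 158 bp away.

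**Figure D2:**
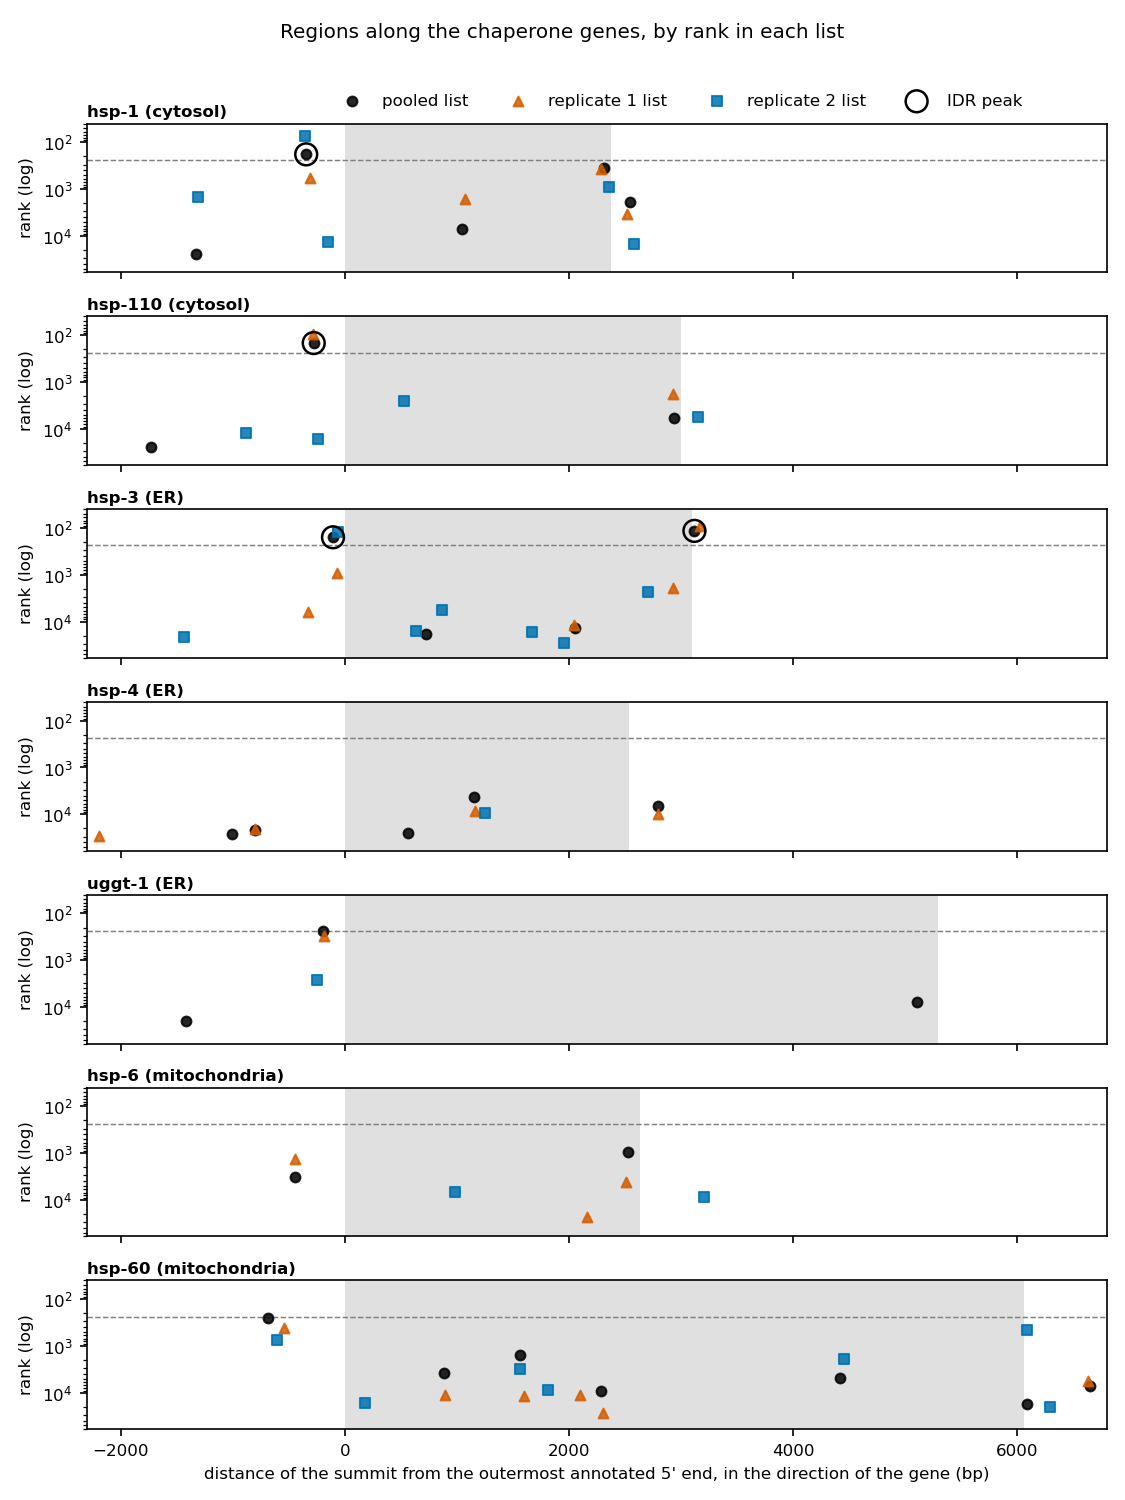
Regions along each of the 7 genes: the horizontal axis is the distance of a summit from the outermost annotated 5′ end in the direction of the gene (bp), the vertical axis the rank in its list (log, strongest at the top), the grey box the gene and the dashed line rank 237. Pooled regions (circles), replicate 1 (triangles), replicate 2 (squares) and IDR peaks (rings) are drawn; the strong regions lie upstream of the box for hsp-1, hsp-110, hsp-3, uggt-1 and hsp-60 and at its end for hsp-1 and hsp-3.

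Over the 7 genes, 11 of the 22 pooled regions lay upstream of the outermost 5′ end, 9 between the ends of the gene and 2 past the 3′ end. Of the upstream regions 7 lay between genes and 4 inside a neighbouring gene. The 6 regions with a rank in the top 500 comprised 5 upstream of a gene and the peak past the end of hsp-3, and the 9 regions inside genes ranked from 1568 to 24756. Within the 2000 bp rule the regions of the top 500 thus lay outside the 7 genes. Beyond that distance, the regions at the 3′ ends of hsp-1 and hsp-6 lay inside them. A further region beyond it, 2924 bp upstream of hsp-60, lay between genes at pooled rank 496 with a signal of 23.6. The overlapping regions ranked 588 in replicate 1 and 2093 in replicate 2.

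Of the 22 pooled regions, 16 overlapped a region of replicate 1, 11 a region of replicate 2, 8 both and 3 neither. Of all 26787 pooled regions, 18085 overlapped a region of replicate 1, 13711 a region of replicate 2, 7950 (29.7%) both and 2941 neither. The counts of the 7 genes are therefore not read as a trait of their regions. A region within 2000 bp of a 5′ end was listed for all 7 genes in each replicate, as for 70.6% of all protein-coding genes in replicate 1 and 73.2% in replicate 2. Among the 237 strongest regions of a replicate, replicate 1 held hsp-110 and hsp-3, and replicate 2 held hsp-1 and hsp-3, which is 2 of the 7 genes in each against 1.38% of all genes in replicate 1 and 1.38% in replicate 2. For hsp-3 the region in question was the one past the 3′ end in replicate 1 and the upstream one in replicate 2, so no single region of the 7 genes was among the 237 strongest of both replicates.

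The 3′ ends were examined after the peak past the end of hsp-3 had been seen. A pooled summit lay within 200 bp of the 3′ end of 6 of the 7 genes, all but hsp-4, against 14.8% of all protein-coding genes. A region of hsp-4 fell just outside this limit, with its summit 262 bp past the 3′ end. It ranked 6535 in the pooled list and 9771 in replicate 1 and was not found in replicate 2. For a region in the top 1000 the count was 3 (hsp-1, hsp-3 and hsp-6), against 1.05% of all genes. The region of hsp-1 (17281102 to 17281441) had its summit in the 3′ UTR 58 bp before the end and 2313 bp from the 5′ end, just outside the 2000 bp rule. It ranked 349 in the pooled list with a signal of 26.2 and a −log10 q of 2.07, 363 in replicate 1 with a signal of 19.4 and 914 in replicate 2 with a signal of 9.96. It was thus in the top 1000 of every list.

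The region at the end of hsp-6 (4824060 to 4824399), 106 bp before the 3′ end in the 3′ UTR, ranked 968 with a signal of 19.2, higher in the pooled list than the region upstream of the gene. It ranked 4216 in replicate 1 and was not found in replicate 2. At the ends of hsp-110, uggt-1 and hsp-60 the pooled ranks were 5756, 7745 and 17561, although replicate 2 alone ranked the region 23 bp past the end of hsp-60 at 467 with a signal of 11.5. Both ends held a region of the top 1000 for hsp-1 and hsp-3, 2 of the 7 genes, against 0.31% of all genes (62). Other protein-coding genes lay near some of these ends. The 5′ end of ufbp-1 was 361 bp from the region at the end of hsp-110, and that of try-14 was 289 bp from the one of uggt-1. For hsp-1 the nearest 5′ end of another protein-coding gene was 2927 bp away. The small nucleolar RNA gene F26D10.24, which starts nearer, was not counted here. The part of these other genes in the signal was not tested.

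**Figure D3:**
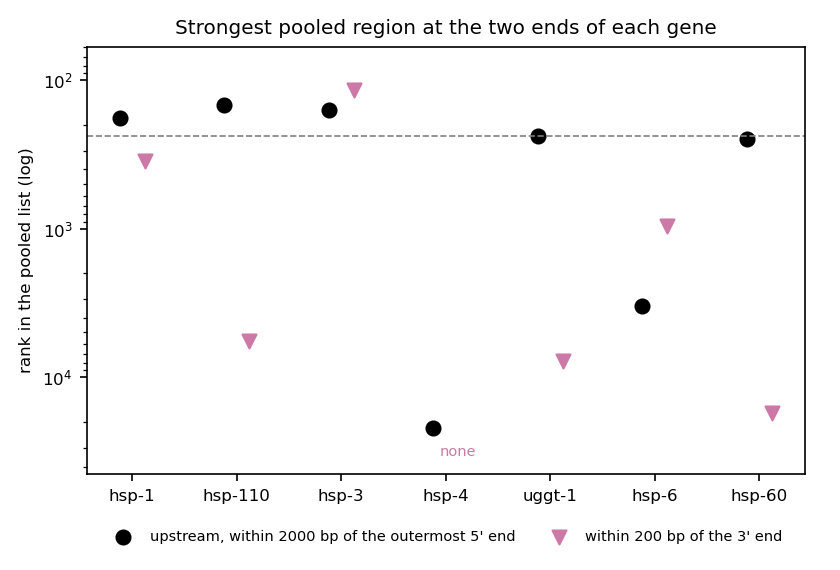
Pooled rank (log axis, strongest at the top) of the strongest region upstream within 2000 bp of the outermost 5′ end (circles) and of the strongest region within 200 bp of the 3′ end (triangles) for the 7 genes, with rank 237 dashed. The 3′ region ranks above the upstream one for hsp-3 and hsp-6, and hsp-4 has none within 200 bp of its 3′ end.

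Motif matches were searched in the 201 bp windows around the strongest summits (upstream and past the end for hsp-3), on both strands. GAANNTTC and the inverse arrangement TTCNNGAA are paired heat shock units. TGACGTG is the core of the unfolded protein response element, and the ER stress element was searched by its published form. AGGTCA is the half-site of many nuclear receptors, and TATAAA is the TATA box. The short strings GAGAGA, then CTGCGTC, and also the palindrome GCGCGC completed the search. An array of 3 alternating heat shock units, which contains matches to the paired units, was added after the sequences had been seen. The arrays occurred in the windows of hsp-110, 237 to 225 bp upstream of the 5′ end and 47 bp from the summit, and of hsp-60, 697 to 685 bp upstream and 4 bp from the summit. Of all 26787 pooled windows 1.50% held such an array, and of the 237 IDR windows 1.27% did. In hsp-1 the only heat shock unit pair was GAANNTTC, 354 to 347 bp upstream and 5.5 bp from the pooled summit. This motif was also in 14.7% of pooled windows and 7.17% of IDR windows.

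The hsp-1 window also held GCGCGC (1.97% of pooled windows and 13.1% of IDR windows) and GAGAGA on the opposite strand at 2 overlapping positions (13.4% and 37.6%). The upstream window of hsp-3 held no heat shock unit pair. It held TGACGTG 132 to 126 bp upstream (1.67% of pooled and 2.11% of IDR windows), TATAAA 171 to 166 bp upstream (21.5% and 16.9%), CTGCGTC 37 to 31 bp upstream (2.67% and 14.8%) and GCGCGC 27 to 22 bp upstream. The window past its 3′ end held TATAAA on the opposite strand and none of the other motifs. The window of hsp-4, inside the gene, held GAANNTTC once. The windows of uggt-1 and hsp-6 held none of the motifs, and AGGTCA and the ER stress element were in none of the windows of the 7 genes. A match describes these letters and is not evidence of a bound factor.

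In base composition the upstream window of hsp-3 stood high, with 58.7% G and C against a median of 35.3% over pooled windows, and 99.6% of them were lower. The window of uggt-1 had 48.3% (93.4% lower), those of hsp-6, hsp-4 and hsp-60 43.3%, 41.8% and 41.3%, and those of hsp-1 and hsp-110 36.3% and 33.8%. The window past the end of hsp-3 had 26.9%, with 10.5% of pooled windows lower. The peaks at the ends of hsp-3 thus lay in DNA of unlike composition.

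Genes with the most similar ranks were sought by the distance in log10 rank over the pooled list and both replicates' lists (2 samples), among the 9527 genes with a region within 2000 bp in all 3. For hsp-1, hsp-110, uggt-1, hsp-6 and hsp-60 the closest gene was a neighbour that shared the same regions, at distance 0: clec-196, rpn-3, F48E3.6, C37H5.5 and Y22D7AL.10. The next were ZK470.2 for hsp-1 (pooled rank 225, then 683 and 88 in replicates 1 and 2), C45B2.8 for hsp-110 (116, 91 and 2307), C26B9.2 for uggt-1 (285, 301 and 2905), M03E7.1 for hsp-6 (3576, 1410 and 6666) and tmem-231 for hsp-60 (278, 476 and 758). Their distances were 0.146, 0.114, 0.0852, 0.0387 and 0.0822. The regions of C45B2.8 are those at the 3′ end of hsp-3 described above, so the match to hsp-110 is with another of the 7 genes' own regions. Closest to hsp-3 were acs-19 and brc-1, which share ranks of 111, 100 and 110 at a distance of 0.0689, and closest to hsp-4 were Y39A1A.21 and T20F5.4 at 0.0489 and 0.0499.

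To place the 7 genes among their kind, 8 lists of chaperones and stress genes were examined. Of 87 symbols 84 were found in the annotation, the 7 genes included, and 77 were others. Of the 84, 72 had a pooled region within 2000 bp, 18 a region of the top 1000 and 7 an IDR peak. The median rank of the strongest region was 5144.5, against 9361 over the 13477 genes of the annotation with a region. That median of 5144.5 includes the 7 genes, which were chosen with strong regions known. A median without them was not taken, so no contrast is read from it. Of the 77 others 65 had a pooled region, 13 one of the top 1000 and 4 an IDR peak. These shares can be read beside the background of 67.4%, 5.4% and 1.42% given above, with the reserve that neighbours share regions.

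The other 4 with an IDR peak were cct-1 and cct-7, subunits of the cytosolic chaperonin CCT, the small heat shock protein gene hsp-12.3 and the ER co-chaperone gene dnj-20. The peak of cct-1 ranked 121 (309 and 103 in replicates 1 and 2), 243 bp upstream. The peak of cct-7 ranked 149 (135 and 3158), 383 bp upstream. For hsp-12.3 the rank was 113 (173 and 82), 934 bp downstream, and for dnj-20 it was 214 (129 and 1294), 1272 bp downstream. In none of the 4 was the named gene the one with the nearest 5′ end, which belonged to mig-5, T10B5.4, F38E11.9 and hal-3.

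Beside hsp-1 and hsp-110, the other genes of the HSP70 and HSP110 list had weaker pooled regions or, for F11F1.1, none. In the lists of replicates 1 and 2, F11F1.1 had regions at ranks 14524 and 6102. The gene stc-1 was at rank 1909 and the heat-inducible hsp-70 at 4846. F44E5.4 and F44E5.5, near-identical genes that reads cannot always separate, were counted for the same region at rank 16749. Its summit lay 168 bp upstream of F44E5.4 and 183 bp upstream of F44E5.5. In the HSP90 list 2 of the 13 genes found were in the top 1000. They were hsp-90 itself at rank 241 (576 and 231 in replicates 1 and 2), 416 bp upstream, and dnj-19 at 594 (2663 and 4640). Of the 14 CCT and prefoldin genes 3 were in the top 1000, with cct-8 at 576 (402 and 13004) beside cct-1 and cct-7. The list's median rank was 9489. Of the 12 small heat shock protein genes 3 were in the top 1000, with hsp-12.2 at 928 (222 and 2459) and hsp-43 at 966 (535 and 7387). A median of 1483 was the lowest of the 8 lists, over 9 genes.

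In the ER list 6 of 15 genes were in the top 1000, hsp-3, uggt-1 and dnj-20 among them. The others included enpl-1, the HSP90 of the ER, at rank 405 (467 and 841 in replicates 1 and 2) 67 bp upstream. The calreticulin gene crt-1 was at 630 (458 and 20692) and the protein disulfide isomerase gene pdi-3 at 900 (1057 and 3400). The nearest 5′ end was that of enpl-1 itself, of smut-1 for crt-1 and of ubql-1 for pdi-3. Of the 9 ER stress and degradation genes 1 was, xbp-1, the transcription factor of the unfolded protein response, at rank 767 (2906 and 289), 72 bp upstream. In the mitochondrial list hsp-60 was the 1 gene of 8 in the top 1000, followed by the proteases ymel-1 at 3018 and clpp-1 at 3913 on either side of hsp-6. Of the 6 stress regulators 0 were in the top 1000: atfs-1 ranked 2112, ubl-5 4169 and dve-1 5032. The stress factors xbp-1 and atfs-1 thus ranked below 5 of the 7 genes and above hsp-4 and hsp-6. The gene of the heat shock factor, hsf-1, ranked below all 7, at 19913 (13648 and 11431 in replicates 1 and 2), so the stress factors did not rank alike.

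**Figure D4:**
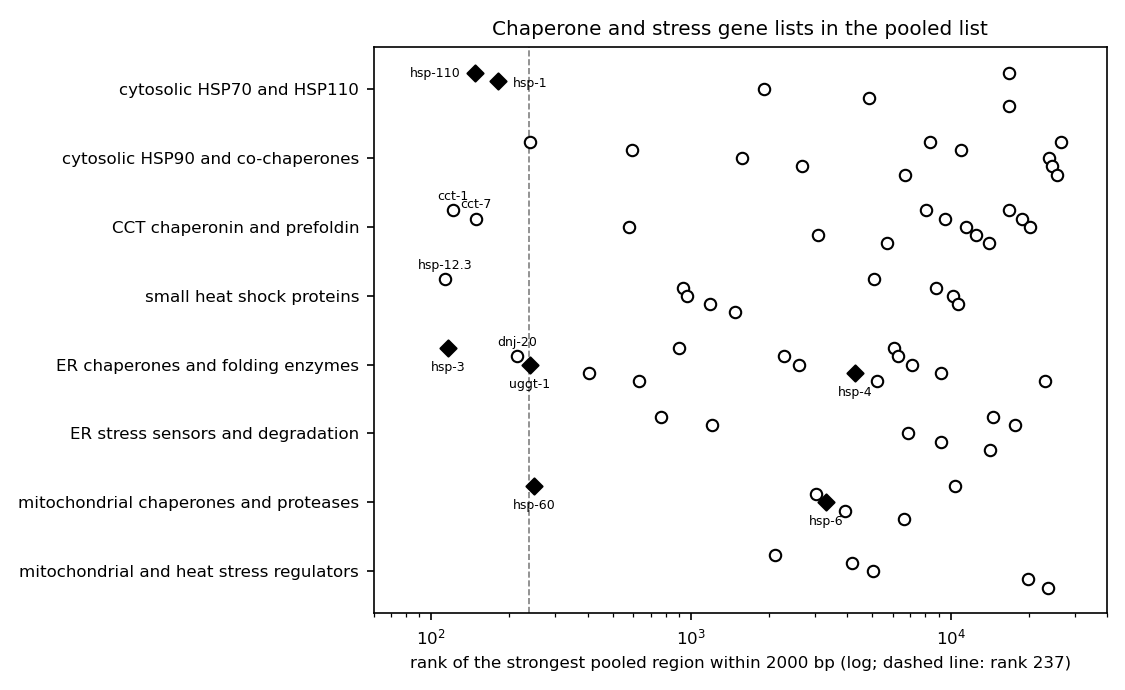
Pooled rank of the strongest region within 2000 bp (log axis, strongest at the left) for each gene of 8 lists with a region; filled diamonds are the 7 genes described here, open circles other genes, and the dashed line is rank 237. Genes with an IDR peak lie left of the line and are named, as are all 7 genes; uggt-1, hsp-90 and hsp-60 lie just right of it, at ranks 239, 241 and 249.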

How the data were processed

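ChIP-seq of tagged NHR-237 was measured in 2 biological replicates of 1 group. The authors deposited narrowPeak lists on ce11 for each replicate and for both together, and the IDR peaks; per the text file deposited with the samples, the pooled list came from both replicates' alignments and a further file, and the IDR peaks from the pooled and both replicates' lists. The deposited signal value of a region is the authors' own, of unstated scale, and was used only to rank regions within a list. The deposited −log10 q values were printed and not used to rank. Aligner, peak caller, IDR threshold and any use of a control are not given in the sources used. The lists hold no read counts, so depth is unknown and no interval is given. Lists on ce10 were not used.

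Summits were set against every annotated 5′ end of protein-coding genes (Ensembl release 115, WBcel235) within 2000 bp, and a region counted for every such gene. Ranks were taken within each list, and replicates were matched by the strongest overlapping region (1 bp or more). Computation used Python 3.11.15, pandas 2.3.3, NumPy 2.4.6 and Matplotlib 3.10.9, and was tested on simulated regions. Because of trans-splicing, an annotated 5′ end in worms may be downstream of where transcription starts.

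The members and lists were chosen with earlier results of these data known, so no test was made. Genes were named by rule: the 7 members with their regions, from each list the genes with an IDR peak and up to 3 more with the best pooled rank, the 2 genes with the most similar ranks, and neighbours of the strongest summits. Outside this rule, hsf-1 was named to stand beside xbp-1 and atfs-1. Alternatives were other distances, the nearest gene only, each replicate alone, a higher signal, and other meanings of overlap. The 3′ ends, the array of 3 units and the outermost 5′ end were added after the data had been seen.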

Additional observations from a re-analysis of the deposited data

How the results depend on the processing

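The count of 3 genes with an IDR peak was 3 at 500, 1000 and 5000 bp and with the outermost 5′ end alone, 2 for the nearest gene, and 2 when the 237 strongest regions of either replicate stood in for the IDR peaks (hsp-110 and hsp-3 in replicate 1, hsp-1 and hsp-3 in replicate 2). At or above the median IDR signal of 41.7 it moved to 1, hsp-3, which stayed through the peak past its 3′ end (41.9) and not its upstream peak (36.8), so none of the 7 genes kept an upstream IDR peak. Over the 84 listed genes, the count of 7 with an IDR peak moved to 13 at 5000 bp, to 2 for the nearest gene and to 2 at or above the median signal. It was 6 with replicate 1 alone and 5 with replicate 2 alone. The count of 72 with a pooled region moved to 45 at 500 bp. Pooled regions of the 7 genes found in both replicates numbered 8, and 3 when the top 1000 regions of each replicate were required (hsp-1, hsp-3 upstream and hsp-60). Changes with distance, signal, nearest gene or top 1000 follow from the narrower or wider criterion; those with 1 replicate used lists of the same length, and their cause was not tested. With the outermost 5′ end alone, hsp-3 kept its upstream peak and lost the one past its 3′ end. Shares over all genes or regions were not taken at the other distances, for the outermost 5′ end, at the higher signal or for the top 1000 of each replicate. These counts therefore have no background beside them. No paired analysis was possible because there is 1 group. Depth is unknown, and whether these regions give signal in other ChIP experiments was not tested.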
